A study of Mus musculus with 8 samples.

Results

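Small leucine-rich proteoglycans are secreted matrix proteins built around a short run of leucine-rich repeats, and most of them carry chondroitin, dermatan or keratan sulfate chains. They bind collagen and set how its molecules assemble into fibrils, and several of them also bind growth factors such as TGF-β. In muscle and tendon they are chiefly products of fibroblasts and tendon cells. The family is divided by sequence into classes, of which decorin (Dcn), biglycan (Bgn) and asporin (Aspn) form the first, fibromodulin (Fmod), lumican (Lum), keratocan (Kera), Prelp and osteomodulin (Omd) the second, and osteoglycin (Ogn) belongs to the third, with chondroadherin (Chad) apart from them. These 10 transcripts were chosen by gene symbol, and 10 of the 10 were present among the 18877 genes of the deposited table. Their levels were compared between genotypes, wild-type and mfn2-/-, in activated muscle stem cells (ASCs), which are stem cells of muscle that an injury has brought out of quiescence.

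RNA-seq was done on total RNA of ASCs from the tibialis anterior muscle of mice, with 4 wild-type and 4 mfn2-/- libraries. Mice of both groups carried the Pax7-CreERT2 driver, a tamoxifen-inducible recombinase active in cells that express Pax7, and the mito-Dendra2 allele, which labels mitochondria of the recombined cells. Both groups received 5 daily tamoxifen doses of 75 mg/kg, were injured 2 days later by 50 uL of 1.2% BaCl2, and gave cells 2 days after injury that were sorted as CD34-, Dendra2+ and DAPI-. The mfn2-/- mice also carried conditional Mfn2 alleles, so that deletion of this mitochondrial fusion gene was limited to the Pax7 lineage. The labels give neither the age of the mice nor whether a library came from 1 mouse or from pooled mice, so p-values measure the spread between these libraries, which may in part be technical.

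The libraries held 1880464 to 7508215 reads in genes, and 1 read was worth 0.534 to 2.27 normalized reads. Reads of Y-linked genes were present in replicates 3 and 4 of the wild-type group and in replicates 1 and 2 of the mfn2-/- group, at 807 to 2336 per library, and the other 4 libraries contained 0. Mfn2, the gene targeted, averaged 229 ± 19.98 normalized reads per wild-type library and 126 ± 31.4 per mfn2-/- library (SD, n = 4) with no overlap, and its log2 change of -0.88 had an adjusted p of 0.0848 by limma. Pax7, the transcription factor that defines muscle stem cells, lay between 582 and 803 in all 8 libraries. Of 10 muscle stem cell markers, 4 were called higher in mfn2-/- ASCs, 0 lower and 6 not called. The summed level of the 10 was 9230 to 14480 in wild-type and 27511 to 41704 in mfn2-/- libraries. Much of that sum was Sdc4 (means of 4271 in wild-type and 17473 in mfn2-/- ASCs) and Des (2156 and 7969). Markers of other cells were called for some cell types only. By limma, 0 of 9 endothelial, 0 of 5 macrophage and 0 of 2 erythroid markers were called. The macrophage list, with 5 of its 10 genes tested, summed to 42.5 to 136 in wild-type and 110 to 164 in mfn2-/- libraries. The erythroid list summed to 34.2 to 66.1 and 0 to 29.2. At levels this low, a missing call does not show that the groups were equal. Of 8 mural cell markers 2 were lower and 1 higher, and of 5 glial markers 2 were lower. Tenocyte markers were lower for 11 of 11 genes tested, of which 5 (Tnmd, Cilp2, Comp, Mkx and Ptx4) passed the filter on low values (a mean of at least 10) only through wild-type, with a summed level of 29110 to 44426 against 353 to 454, and Ptx4 of this list was at 0 reads in all mfn2-/- libraries. Fibroadipogenic markers were lower for 13 of 16, of which 4 passed only through wild-type, with sums of 191098 to 250772 against 5659 to 10123, and Twist2 of this list was at 0 reads in the 4 mfn2-/- libraries. The part of these cells in the results was not tested. In bulk RNA, fewer cells of a type and less RNA per cell cannot be told apart.

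The family as a whole was lower in mfn2-/- ASCs. Together the 10 transcripts took 1.15% ± 0.221 (SD, n = 4) of each wild-type library and 0.0807% ± 0.0155 of each mfn2-/- library, counted in normalized reads, and their summed level fell from 39883 to 54423 per wild-type library to 2505 to 3806 per mfn2-/- library. By limma on log2(normalized read count + 1), 9 of the 10 members were called lower at an adjusted p under 0.05 and 0 higher. Among the 11754 genes tested, 6.36% were called lower and 3.99% higher. The same 9 members had every mfn2-/- value under every wild-type value, while this held for 12.2% of all genes. The median log2 change was -6.37 over the members and -0.16 over all genes. Lum, Kera, Omd and Chad passed the same filter only through their wild-type level and so had to differ; of the other 6 members 5 were called lower. The number called lower was also 9 by edgeR, which called 5.59% of all genes lower, by DESeq2, which called 9.27%, and by limma without mfn2-/- replicate 4, which had reads in 9646 genes where the other libraries had 12613 to 15270. The exception was Prelp, which did not pass the test.

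**Figure D1:**
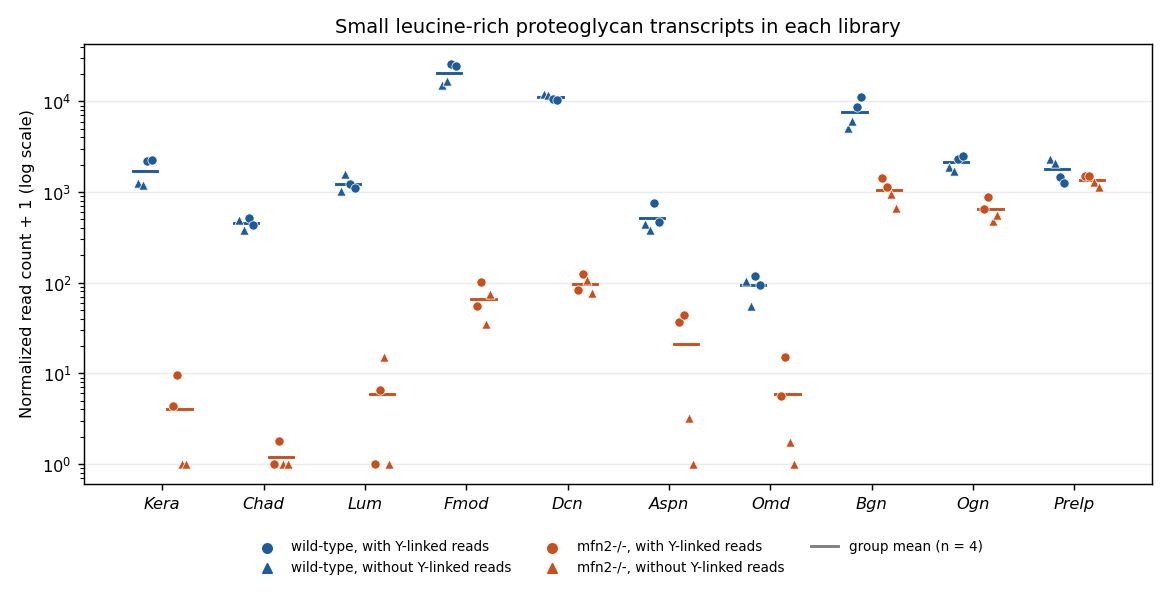
Normalized read count plus 1 of each of the 10 transcripts (vertical axis, log scale), with 1 point per library, ordered by the size of the change. Wild-type libraries are blue and mfn2-/- libraries orange, circles have Y-linked reads and triangles have none, and bars are means of 4 libraries. The colours are separated for every gene except Prelp, and among the separated genes the distance is smallest for Ogn, at 3.28-fold.

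Decorin, which binds fibrillar collagen and carries a single dermatan or chondroitin sulfate chain, was among the steadiest transcripts of the family in wild-type ASCs. Dcn measured 12189.9, 11745, 10503 and 10432 normalized reads in wild-type replicates 1 to 4, and 82.0, 123, 106 and 75.1 in mfn2-/- replicates 1 to 4. Each group was narrow and the distance between them was wide. The mean was 116-fold lower in mfn2-/- ASCs, where 0.861% of the wild-type level was left (log2 change -6.87, SE 0.20, limma adjusted p 2.7e-10). Biglycan, a close relative with a pair of such chains, stayed much higher. Bgn measured 5069, 6025, 8674 and 11088 in wild-type and 1418, 1129.8, 955 and 665 in mfn2-/- libraries. The groups did not overlap, and 13.5% of the wild-type mean was left, a 7.40-fold difference (log2 change -2.87, SE 0.28, limma adjusted p 2.6e-05). Asporin, a class member that carries no glycosaminoglycan chain, was weaker. Aspn measured 448, 379, 764 and 472 in wild-type and 36.0, 42.7, 2.21 and 0 in mfn2-/- libraries. The last 2 values correspond to 3 and 0 reads, so the mfn2-/- libraries were themselves uneven. The means differed 25.5-fold (log2 change -5.88, SE 1.04, limma adjusted p 0.0030).

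Fibromodulin, a keratan sulfate proteoglycan of tendon and cartilage that regulates collagen fibril growth, was the highest member in wild-type ASCs. Fmod measured 15119, 16695, 25857 and 24797 normalized reads in wild-type replicates 1 to 4, and 54.0, 100.3, 33.9 and 73.3 in mfn2-/- replicates 1 to 4. Every wild-type library stood above every mfn2-/- library by 2 orders of magnitude. The mean was 315-fold lower (log2 change -8.35, SE 0.30, limma adjusted p 1.1e-09). Lumican, the keratan sulfate proteoglycan known from the transparent cornea, measured 1021, 1565, 1224 and 1108 in wild-type and 0, 5.53, 14.0 and 0 in mfn2-/- libraries. The mfn2-/- values rested on 26 reads in all. The difference was 252-fold (log2 change -8.59, SE 0.84, limma adjusted p 2.8e-05), and summed reads gave a ratio of 221 with a 95% counting interval of 150 to 338. Keratocan, a corneal proteoglycan that is also found in tendon, measured 1253, 1190.5, 2207 and 2243 in wild-type and 3.33, 8.69, 0 and 0 in mfn2-/- libraries. It was read 16 times in the mfn2-/- group, at a ratio of summed reads of 558 (interval 343 to 976) and a fitted log2 difference of -9.34 (SE 0.76, limma adjusted p 4.5e-06). The counting intervals cover counting error only, since amplified copies of a molecule were not told apart.

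Prelp, a basic leucine-rich repeat protein that anchors basement membranes to connective tissue through heparan sulfate and collagen, did not follow the other members of its class. Its level was 2288, 2117, 1469 and 1245 in wild-type and 1514, 1493, 1276 and 1136 in mfn2-/- libraries. The groups overlapped: the mfn2-/- values fell inside the wild-type range except for the lowest. The mean was 1779.7 ± 501 in wild-type and 1355 ± 181 in mfn2-/- ASCs (SD, n = 4), with 76.1% left and a log2 difference of -0.36 (SE 0.22, 95% interval -0.83 to 0.11, limma adjusted p 0.343, two-sided exact permutation p = 0.257). Fits that left out single libraries gave log2 changes of -0.52 to -0.22, and library weights brought the change to 0.00097. Omd, a keratan sulfate proteoglycan first known from bone, was the weakest member. It measured 104.6, 53.9, 118 and 94.0 in wild-type and 4.67, 14.2, 0.737 and 0 in mfn2-/- libraries. The groups did not overlap, at an 18.9-fold difference (log2 change -4.68, SE 1.09, limma adjusted p 0.0153). The Omd log2 change lost its call with a pseudocount of 0.1 (limma adjusted p 0.0552) and where wild-type replicate 3 (0.0621) or wild-type replicate 4 (0.0551) was left out.

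Osteoglycin, also called mimecan, is a small keratan sulfate proteoglycan that takes part in collagen fibril formation. Ogn measured 1901, 1719, 2342 and 2514 in wild-type and 654, 887, 484 and 555 in mfn2-/- libraries. The lowest wild-type library remained above the highest mfn2-/- library, and 30.4% of the wild-type mean was left (3.28-fold, log2 change -1.74, SE 0.22, limma adjusted p 0.00027). Chondroadherin, a cartilage protein that binds collagen and integrins and has no glycosaminoglycan chain, was nearly undetected in mfn2-/- ASCs. Chad measured 489, 379, 520 and 431 in wild-type replicates 1 to 4. In the mfn2-/- group it was read once, in replicate 2 (0.79 normalized reads), and the other 3 libraries were at 0. Each mfn2-/- library was thus at or under 3 reads, which correspond to 2.00 to 5.50 normalized reads. The ratio of summed reads was 2098 with a 95% counting interval of 376 to 82926, and the fitted log2 change of -8.61 (SE 0.84, limma adjusted p 2.8e-05) depends on the pseudocount.

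Per length of transcript, the order of the members changed between the genotypes. Normalized reads per kb of exon (GENCODE exon lengths) were 6236 ± 1662 for Fmod (SD, n = 4), 1921 ± 152 for Dcn, 1265 ± 446 for Bgn and 826 ± 145 for Ogn in wild-type ASCs. Below them stood Kera at 756 ± 254, Lum at 502 ± 97.4, Prelp at 492 ± 139, Chad at 271 ± 37.4, Aspn at 219 ± 72.3 and Omd at 41.1 ± 12.2. Neighbours in this order from Bgn to Prelp lay within the larger SD of each pair, as did Chad and Aspn. Fmod, Dcn and Omd stood apart from the genes next to them by more than that. In mfn2-/- ASCs Prelp led with 375 ± 50.2 reads per kb, followed by Ogn at 251 ± 68.5, Bgn at 171 ± 51.7, Fmod at 19.8 ± 8.56 and Dcn at 16.6 ± 3.80. The last pair did not differ beyond its spread. Aspn (8.59 ± 9.45), Omd (2.18 ± 2.91), Lum (1.99 ± 2.70), Kera (1.32 ± 1.80) and Chad (0.118 ± 0.235) had SDs larger than their means, and no order was read from them.

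As a share of the summed 10 transcripts, Fmod made up 42.9% ± 4.79 and Dcn 24.3% ± 5.83 in wild-type ASCs, with Bgn at 15.9% ± 3.29, Ogn at 4.46% ± 0.291 and Prelp at 3.95% ± 1.70. In mfn2-/- ASCs Prelp made up 42.3% ± 3.03, Bgn 31.8% ± 4.77 and Ogn 19.9% ± 3.29, while Dcn was at 3.03% ± 0.636 and Fmod at 2.04% ± 0.865. The share of Prelp was 39.2% to 45.4% in every mfn2-/- library and 2.29% to 5.74% in every wild-type library. The small remainder in mfn2-/- ASCs was thus mostly Prelp, Bgn and Ogn transcript, in each of the 4 libraries.

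**Figure D2:**
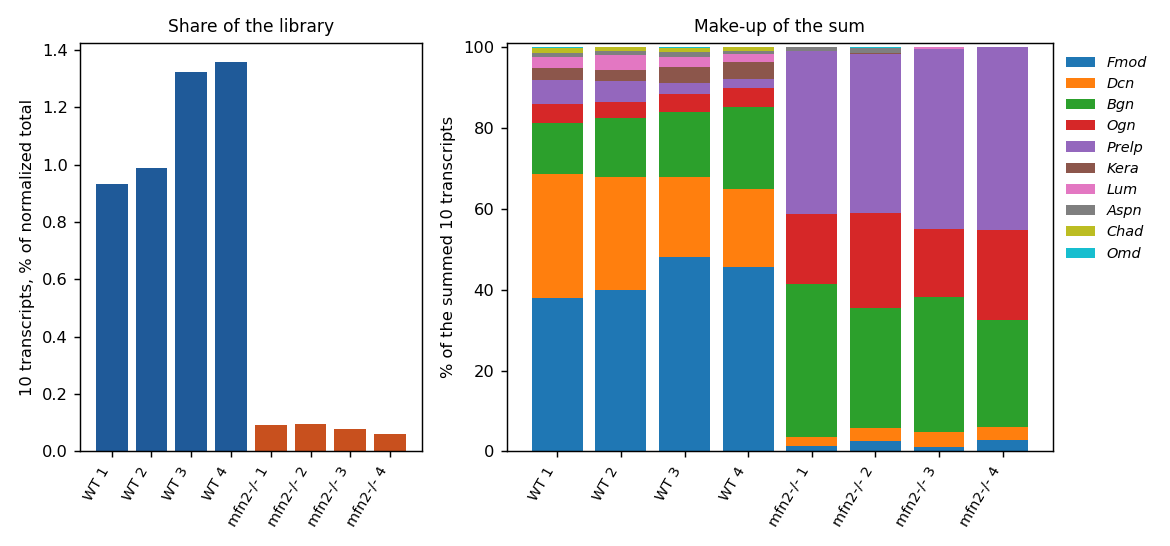
Left, share of all normalized reads taken by the 10 transcripts in each library (%), which was 0.933% to 1.36% in wild-type and 0.0602% to 0.0942% in mfn2-/- libraries. Right, make-up of that sum in each library (%), where Fmod and Dcn fill most of the wild-type bars and Prelp, Bgn and Ogn most of the mfn2-/- bars.

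Whether the members fell by different amounts was tested by taking the Dcn level of each library as reference, in the same limma fit. Relative to Dcn, Prelp was less reduced by 6.51 on the log2 scale (SE 0.25, limma adjusted p 1.5e-13), Ogn by 5.13 (SE 0.27, adjusted p 4.7e-12) and Bgn by 4.00 (SE 0.32, adjusted p 2.0e-09). A change smaller than that of Dcn was common, since 98.2% of all genes tested fell less than Dcn or rose. A larger fall was called for 0.0766% of genes (9 of 11753), among them Fmod, Kera and Lum, of which Kera and Lum had passed the filter on low values only through wild-type. Fmod fell further than Dcn by a log2 difference of -1.48 (SE 0.34, limma adjusted p 0.00054), Kera by -2.47 (SE 0.74, adjusted p 0.0044) and Lum by -1.72 (SE 0.78, adjusted p 0.0413). The Lum and Kera values rested on few reads, and with a pseudocount of 10 Lum turned to 0.28 and Kera shrank to -0.31, neither of them called. Fits without single libraries put the adjusted p of Lum above 0.05 in 6 cases, namely without each of the 4 wild-type replicates in turn and without mfn2-/- replicate 1 or 4. Aspn (0.99, 95% interval -1.04 to 3.03, adjusted p 0.318), Omd (2.19, interval -0.11 to 4.48, adjusted p 0.0618) and Chad (-1.74, interval -3.65 to 0.17, adjusted p 0.0718) did not pass. Without mfn2-/- replicate 4 all 3 did, at 1.91 for Aspn, 2.68 for Omd and -1.78 for Chad.

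**Figure D3:**
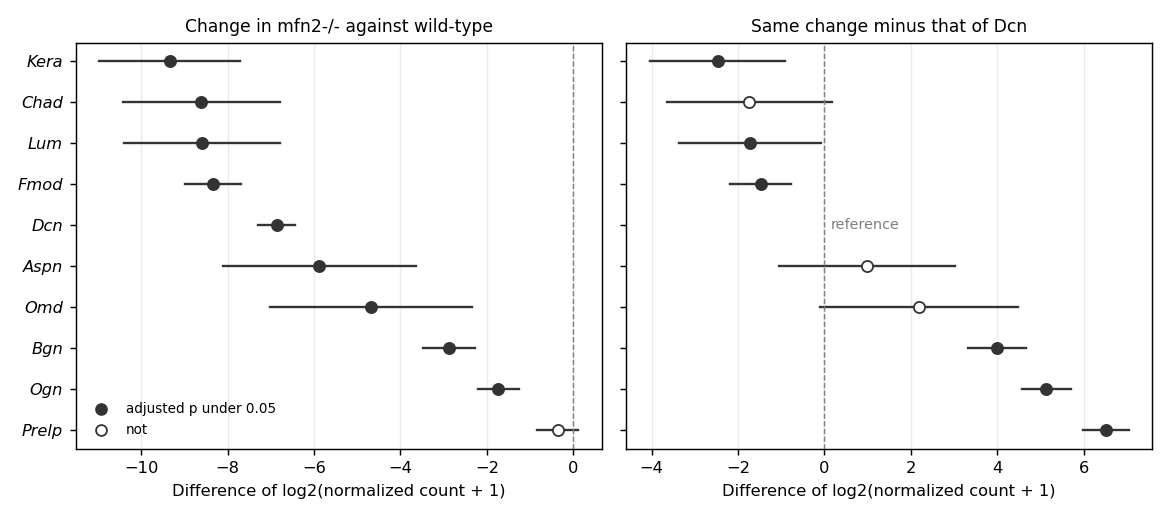
Left, difference of log2(normalized read count + 1) between mfn2-/- and wild-type ASCs for each member, with 95% intervals of the limma fit and filled points at an adjusted p under 0.05. Right, the same difference with that of Dcn subtracted in each library, where Prelp, Ogn and Bgn lie to the right of 0 and Fmod, Kera and Lum to the left.

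Within the wild-type group the members also varied with the presence of Y-linked reads, with 2 libraries on each side, and this difference within the wild-type group was not tested. The wild-type libraries with Y-linked reads were above those without, with no overlap, for Kera (1.82 times the mean), Bgn (1.78), Fmod (1.59), Aspn (1.49) and Ogn (1.34). They were below for Dcn (0.875 times) and Prelp (0.616 times). The ranges overlapped for Lum, Omd and Chad. Of the 11 tenocyte markers, 9 were above without overlap in the wild-type libraries with Y-linked reads, 1 (Fibin) was below and 1 (Scx) overlapped, with sums of 41530.3 to 44426 with and 29110 to 29215 without such reads. Of the 16 fibroadipogenic markers tested, 7 were above, 4 below and 5 overlapped. Their sums were 239854 to 250766 with and 191082 to 202521 without such reads. The split was not limited to these lists. Of the 10 muscle stem cell markers, 3 were above, 6 below and 1 overlapped, with sums of 9230 to 9455 with and 14010 to 14480 without such reads. The part of these cells in the split was not tested, and within a genotype the Y-linked reads cannot be told apart from the replicate pair. With 2 libraries on each side, ranges separate easily by chance. The share of all genes separated in this way was not computed, so these counts do not set members or markers apart from other genes.

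The genotype difference was therefore computed on each side of that split. The log2 change of Dcn was -6.69 in libraries with and -7.05 in libraries without Y-linked reads, that of Fmod -8.41 and -8.29, that of Bgn -2.95 and -2.79, that of Ogn -1.67 and -1.80, and that of Lum -8.83 and -8.35. These 5 were close on both sides. For Lum the closeness is uncertain, with an interaction SE of 1.81. It rested on 0 and 7 reads in mfn2-/- libraries with and 19 and 0 in those without Y-linked reads. Chad was at -8.47 and -8.75, with 1 read in the whole mfn2-/- group. The change was -8.42 and -10.26 for Kera, -3.51 and -5.85 for Omd, and -3.90 and -7.85 for Aspn, with 0 to 3 reads of each in the mfn2-/- libraries without Y-linked reads. Prelp moved in opposite directions: 1514 and 1493 against 1469 and 1245 with Y-linked reads (log2 change 0.15), and 1276 and 1136 against 2288 and 2117 without them (-0.87). The difference between the sides passed the test for 0 of the 10 members after adjustment, with 1.47% of all genes called. At an unadjusted p under 0.05 it passed for Prelp and Aspn, 2 members, beside 12% of all genes. The limma interaction was 1.02 (SE 0.22, adjusted p 0.0582) for Prelp and 3.95 (SE 1.13, adjusted p 0.167) for Aspn.

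Most members lie next to each other in the genome, and neighbours did not always change alike. In the GENCODE M21 annotation of GRCm38 (the processing notes of the study name mm9, so positions are given for orientation only), Prelp (chromosome 1, 133910304 to 133921414, minus strand) and Fmod (134037254 to 134048277, plus strand) are separated by 115.8 kb with 0 other protein-coding genes. Of this pair Fmod fell 315-fold and Prelp was not called. On chromosome 10, Dcn (97479609 to 97518143), Lum (97565128 to 97572703) and Kera (97606879 to 97613692) follow each other on the plus strand with gaps of 46.98 and 34.2 kb, and all 3 fell by more than 100-fold. On chromosome 13, Aspn (49544443 to 49567565), Omd (49582462 to 49592822) and Ogn (49608046 to 49624501) lie on the plus strand, preceded by Ecm2, a related leucine-rich gene (49504810 to 49532789). Their log2 changes were -3.32 for Ecm2, -5.88 for Aspn, -4.68 for Omd and -1.74 for Ogn. Bgn (chromosome X, 73483602 to 73495933) and Chad (chromosome 11, 94565047 to 94569127) stand alone. All 4 genes of the chromosome 13 cluster lie within the span of Cenpp on the opposite strand, Chad within that of Acsf2, and Prelp overlaps an antisense transcript. Whether reads were counted by strand is not given in the sources used here, so reads of the partners may be included. Cenpp itself measured 0 to 40.9 in wild-type and 0 to 7.37 in mfn2-/- libraries. Acsf2 measured 139 ± 54.8 in wild-type and 83.1 ± 43.4 in mfn2-/- ASCs (SD, n = 4), where Chad was at 0 to 0.79.

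**Figure D4:**
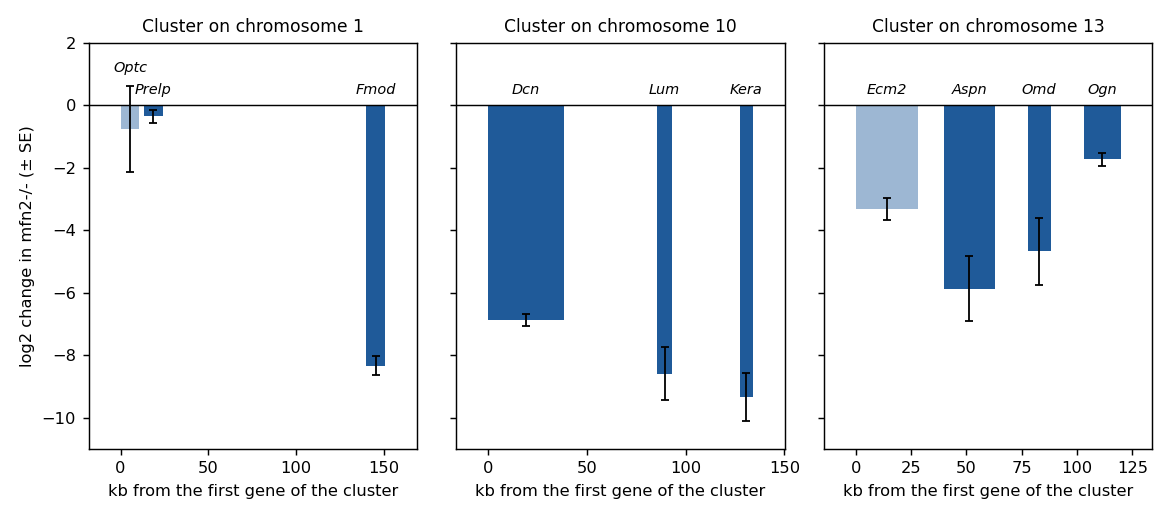
log2 change in mfn2-/- against wild-type ASCs (vertical axis, ± SE of the limma fit) of the family genes in 3 genomic clusters, drawn at their distance from the first gene of each cluster (kb). Dark bars are members and light bars the related genes Optc and Ecm2, and on chromosome 1 the bar of Fmod reaches -8.35 beside -0.36 for Prelp.

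The promoter sequences of 4 members with unlike responses are shown so that they can be read side by side: the chromosome 1 neighbours Fmod and Prelp, Bgn, which kept 13.5% of its level, and Chad, which was read once in the mfn2-/- group. They are the 250 bases before the RefSeq start (GRCm38.p6, written 5′ to 3′ along the gene's strand), and capitals mark matches on either strand to the letters TATAAA, known as a TATA box, to the letters TGANTCA, known as an AP-1 site, or to the letters GGGCGG, known as a GC box. The last capitals in Bgn are overlapping matches.
Fmod, chr1:134037004-134037253 (+ strand): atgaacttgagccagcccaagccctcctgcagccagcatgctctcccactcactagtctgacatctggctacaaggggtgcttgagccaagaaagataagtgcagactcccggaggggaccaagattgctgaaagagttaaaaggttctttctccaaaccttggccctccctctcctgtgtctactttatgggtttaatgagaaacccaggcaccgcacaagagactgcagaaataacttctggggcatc
Prelp, chr1:133921402-133921651 (- strand): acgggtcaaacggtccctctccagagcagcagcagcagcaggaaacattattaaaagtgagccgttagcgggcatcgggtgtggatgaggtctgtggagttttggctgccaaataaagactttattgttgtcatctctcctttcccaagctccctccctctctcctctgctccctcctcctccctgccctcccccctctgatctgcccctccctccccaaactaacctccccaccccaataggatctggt
Bgn, chrX:73483351-73483600 (+ strand): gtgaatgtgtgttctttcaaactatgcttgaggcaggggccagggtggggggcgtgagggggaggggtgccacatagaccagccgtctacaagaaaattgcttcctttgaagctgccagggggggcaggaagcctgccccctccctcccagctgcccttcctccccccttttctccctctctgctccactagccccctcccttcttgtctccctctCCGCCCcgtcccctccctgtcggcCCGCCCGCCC
Chad, chr11:94564797-94565046 (+ strand): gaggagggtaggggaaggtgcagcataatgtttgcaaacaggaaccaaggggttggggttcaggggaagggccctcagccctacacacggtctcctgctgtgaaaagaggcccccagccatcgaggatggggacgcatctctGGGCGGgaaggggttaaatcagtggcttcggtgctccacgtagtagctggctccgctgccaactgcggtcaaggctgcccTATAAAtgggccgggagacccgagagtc

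Such sequences were found for 8 members, leaving out Dcn and Lum. The motif TATAAA was in 3 of the 8 (Chad, Aspn and Ogn) and in 13.0% of 27018 promoters. In Chad it began 28 bases before the start, whereas in Aspn and Ogn the matches began 178 to 229 bases before it. GGGCGG was in Bgn, with 3 matches that began 34, 10 and 6 bases before the start, in Chad, and in 32.9% of all promoters. TGANTCA was in 0 of the 8 and in 6.87% of all promoters. CANNTG, the E-box letters, was in 5 of the 8 and in 66.1%, and CAGACA, a SMAD-site motif, in 0 of the 8 and in 17.1%. The windows of Fmod and Prelp held no match to the first 3 motifs. These matches describe letters in the windows and were not tested against the changes.

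Related genes and partners were read from lists in the same fit. Of 4 other small leucine-rich protein genes tested, 3 were lower and 0 higher (median log2 change -3.31, beside -0.16 for all genes). Ecm2, named above, measured 996 ± 121 in wild-type and 109 ± 52.5 in mfn2-/- ASCs, Podn (podocan), which passed the filter only through wild-type, 749 ± 165 and 7.68 ± 5.17, and Tsku (tsukushi) 135 ± 95.2 and 14.9 ± 13.3. Optc (opticin), beside Prelp on chromosome 1, was near the floor at 14.7 ± 10.95 and 14.3 ± 15.6. Nyx, Podnl1 and Chadl were under the filter, and Epyc, the gene after Kera, was not analysed here.

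The collagens and other matrix proteins that these proteoglycans bind were lower for 18 of 21 genes, with 0 higher and a median of -4.12. The most abundant were Col1a1 (106037 ± 21896 against 334 ± 124, a 317-fold difference), Col1a2 (210-fold) and Col3a1 (18.6-fold), chains of the main fibrillar collagens. These 3 also belong to the fibroadipogenic list, and Col11a1 is in the tenocyte list as well. The proteases that process the family or its collagens were lower for 7 of 11 (4 without wild-type replicate 4) and higher for 1 (median -2.82). Mmp2, a gelatinase, fell from 5121 ± 189 to 728 ± 105, and Bmp1, which removes the propeptides of collagen and of Bgn, from 1135 ± 174 to 366 ± 123. Adamts1 did not pass (2273 ± 430 and 1998 ± 819). Adamts4, an aggrecanase, rose from 492 ± 190.5 to 1299 ± 510, or by 1.40 on the log2 scale (SE 0.31, adjusted p 0.0127).

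The enzymes that build the sugar chains were read next. For the linker that starts a chondroitin or dermatan sulfate chain, 0 of 6 enzymes were called by limma in either direction (median -0.71; 1 at an unadjusted p under 0.05, and 0 by edgeR or DESeq2), and Fam20b, its kinase, measured 208 ± 26.8 and 123 ± 28.4. Xylt2 (73.3 ± 48.7 and 40.7 ± 29.1) and Xylt1 (57.7 ± 44.9 and 32.6 ± 13.8), which add the first sugar, did not pass either. Of 15 chondroitin and dermatan sulfate enzymes 3 were lower and 0 higher (median -2.08). These were Chpf, a polymerizing factor (log2 change -3.31, SE 0.88, limma adjusted p 0.0301), the epimerase gene Dsel (-2.24, SE 0.63, adjusted p 0.0373) and the sulfotransferase gene Chst12 (-4.57, SE 1.14, adjusted p 0.0219), which passed the filter on low values only through wild-type (73.1 ± 57.0 and 2.37 ± 3.38). The epimerase Dse (263 ± 73.1 and 181 ± 57.1) and Csgalnact2 (364 ± 62.8 and 428 ± 103) did not pass. This count moved between 0 and 6 over the alternatives, with 0 without wild-type replicate 2 or 4 and 1 without wild-type replicate 1 or 3. Of 6 keratan sulfate enzymes 0 were called by limma (median -0.93) and 1 had an unadjusted p under 0.05. B4galt1, a galactosyltransferase, came nearest at 291 ± 84.4 and 141 ± 22.4 (limma adjusted p 0.0542, edgeR 0.0661, DESeq2 0.0179). The count was 1 by DESeq2 and 0 by edgeR, and 1 in the limma fits without wild-type replicate 2 or 4 or mfn2-/- replicate 4, with a minimum mean of 50, with library weights or with a Y-linked term. Fut8 measured 201 ± 44.1 and 125 ± 68.1, and St3gal1 2673 ± 2488 and 794 ± 130, with an SD close to its mean in wild-type ASCs.

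Among 12 receptors that bind members of the family, 3 were lower and 0 higher (median -0.65). Lrp1, an endocytic receptor for Dcn, fell from 13275 ± 692 to 5533 ± 1004 (log2 change -1.28, SE 0.20, limma adjusted p 0.0011). Itgb1, the β subunit of collagen-binding integrins, fell from 3390.0 ± 320.2 to 2130.0 ± 304 (adjusted p 0.0256), and Itga2, an α partner, from 49.6 ± 29.6 to 1.16 ± 1.50 (adjusted p 0.0252), after passing the filter only through wild-type. This count was 1 without wild-type replicate 3, wild-type replicate 4 or mfn2-/- replicate 1. Egfr, which binds Dcn, did not pass (2143 ± 259 and 1528 ± 746). Of 21 other proteoglycans 10 were lower and 2 higher (median -2.03), and 3 of the 10 (Prg4, Acan and Spock3) passed the filter only through wild-type. Hspg2 (perlecan) fell from 13773 ± 236 to 3801 ± 628, Tgfbr3 (betaglycan) did not pass (4642 ± 789 and 3826 ± 733), and the cell surface proteoglycan Sdc4 (syndecan 4), which is also a muscle stem cell marker, rose from 4271 ± 1529 to 17473 ± 3953 (log2 change 2.08, SE 0.27, limma adjusted p 0.00032). The other higher gene was Cd44, a hyaluronan receptor (401 ± 92.2 and 819 ± 277, adjusted p 0.0347), and 1 higher gene was left in each of the 6 fits that dropped mfn2-/- replicate 2, 3 or 4 or wild-type replicate 1, 3 or 4.

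**Figure D5:**
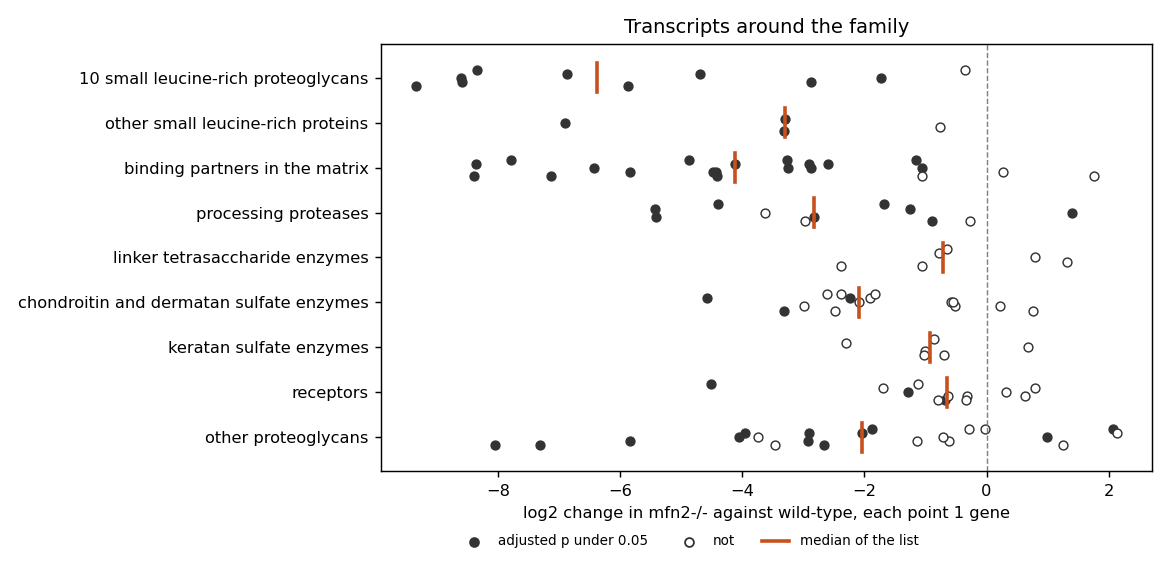
log2 change in mfn2-/- against wild-type ASCs (horizontal axis), with 1 point per gene tested, for the 10 members and 8 related lists. Filled points had an adjusted p under 0.05 and orange bars are medians, which reach -6.37 for the members, -4.12 for their binding partners and -0.65 to -0.93 for linker enzymes, keratan sulfate enzymes and receptors.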

How the data were processed

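Total RNA of sorted ASCs was sequenced after library preparation with a stranded low-input kit. The submitters' processing notes name Trim Galore, HISAT2, featureCounts, DESeq2 and mm9, and their versions and settings are not given in the sources used here. The deposited signal is a normalized read count per gene, made by the authors with 1 size factor per library: 100% of values were whole multiples of 1 step (within 0.01), so whole reads could be recovered. The table held 24 symbols turned into dates.

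Groups were taken from the labels (4 libraries each). Genes with a mean of at least 10 (11754) went into a two-sided limma fit (version 3.58.1, R 4.3.3) with intensity trend on log2 values with a pseudocount of 1, adjusted by Benjamini-Hochberg over all genes at 0.05. For weak genes a fold on that scale can be larger or smaller than that of a count model. The log2 change was -5.88 by limma and -4.66 by DESeq2 for Aspn, and -8.61 and -10.67 for Chad. Exact permutation tests over 70 arrangements allow p = 0.0286 at the smallest. Ratios of summed reads carry exact binomial 95% intervals. The tests were checked on simulated counts. Members and lists were chosen with earlier results of these data known. All 10 members are named, and from each list the 3 genes with the largest mean and the called genes where 5 or fewer were called. Pax7, Twist2, Fibin, Scx, Tnmd, Cilp2, Comp, Mkx, Ptx4, Prg4, Acan, Spock3, Acsf2 and Cenpp were named after their values were seen. Lists were matched by symbol. Exon lengths are from GENCODE M21 and promoters from RefSeq (GRCm38.p6). Other settings tried were a pseudocount of 0.1 or 10, a minimum mean of 50 or none, other scalings, a replicate block, no trend, library weights, a Y-linked term, single libraries left out, adjusted p under 0.01, and edgeR 4.0.16 (TMM) and DESeq2 1.42.0 on recovered reads.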

Additional observations from a re-analysis of the deposited data

Results flagged for a closer look

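Chad in mfn2-/- replicate 2 (0.79 normalized reads, which is 1 read) stood apart from the 0 of the other 3 libraries of its group. Of the 24 groups examined 1 was flagged. A single read beside 0 in the other libraries is flagged whatever its size, so the chance rate of about 1 in 20 does not apply to it.

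Prelp was higher in both mfn2-/- libraries than in both wild-type libraries where Y-linked reads were present, and lower in both where they were absent. The difference of the log2 change between the sides was 1.02 (SE 0.22), and its limma adjusted p of 0.0582 did not pass the threshold. The part of the Y-linked reads, or of the replicate pair that goes with them, was not tested.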

How the results depend on the processing

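The direction of change of 9 members was the same in all settings, and 8 or 9 of them were called lower in each, with 8 to 9 when single libraries were left out. With a mean of at least 50 Omd was not tested. Prelp was called in none, and library weights turned its log2 change to 0.00097. Quantile normalization moved the median of all genes by 0.29 to 0.13. With a pseudocount of 10, the change relative to Dcn was reversed for Chad (1.24) and Lum (0.28), 6 members fell less than Dcn and 1 fell more, and library weights gave 5 that fell less (3 in the reported fit for each). Leaving out single libraries gave 3 to 5 that fell less and 2 to 3 that fell more, and without mfn2-/- replicate 4 the number that fell less was 5. The difference between libraries with and without Y-linked reads was called for 1 member with a pseudocount of 10 and with a mean of at least 50, and for 0 to 2 when single libraries were left out (2 without mfn2-/- replicate 3). Over all genes the calls were 1217 (469 higher, 748 lower) as reported, 633 (113 higher) without the intensity trend, 3037 (1398 and 1639) with library weights, 498 (152 and 346) at an adjusted p under 0.01, and 671 to 1331 (235 to 489 and 436 to 842) without single libraries, with 671 without wild-type replicate 3 and 749 without wild-type replicate 4. Mfn2 passed with library weights (-0.87, adjusted p 0.0099). The cause of these shifts was not tested. With genes at 0 reads in mfn2-/- libraries set to their bound of 3 reads over the group, the median of the fibroadipogenic list was -6.04 in place of -5.51, and no other list median changed.

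Libraries of the 2 groups that share a replicate number did not deviate together (correlations of -0.035, -0.053, 0.038 and -0.11), so the numbers were not taken as pairs. A fit with the replicate number as a block called 9 members lower and 1043 genes in all (434 higher, 609 lower), and it gave Mfn2 an adjusted p of 0.155 and changed no call of a member.

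Depth limits Lum, Kera, Omd, Aspn and Chad most, since the mfn2-/- group held between 1 and 111 reads of each.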

Other observations

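Other marker lists gave these counts in mfn2-/- ASCs. Of 9 myofiber markers 3 were higher and 0 lower, among them Ttn (834 ± 248 and 1326 ± 94.5), Myh4 (122 ± 93.9 and 587 ± 118) and Myh1 (83.8 ± 25.9 and 315 ± 98.0), while Acta1 did not pass (904 ± 306 and 1249 ± 516). The muscle stem cell markers that rose were Myod1, Des, Vcam1 and Sdc4. Of 8 mural cell markers Pdgfrb (583 ± 60.9 and 73.8 ± 16.1) and Cspg4 (513 ± 61.6 and 37.9 ± 27.1) were lower and Abcc9 was higher (152 ± 87.4 and 397 ± 135), a call that was lost in each of the 6 fits that dropped mfn2-/- replicate 1, 2 or 4 or wild-type replicate 1, 2 or 3. Of 5 glial markers Ngfr and Cdh19 were lower, and 1 of them without any single one of wild-type replicates 2, 3 and 4 or mfn2-/- replicate 2. By limma, 0 of 9 endothelial, 0 of 5 macrophage and 0 of 2 erythroid markers were called, and no neutrophil or lymphocyte marker passed the filter. The Y-linked list had 0 of 4 called. At an unadjusted p under 0.05 these were 0, 1, 1 and 0 genes, and edgeR and DESeq2 called 0 in each list.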
